A study of Homo sapiens with 6 samples.

Results

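The genes described here belong to the families that copy the DNA and divide the chromosomes. They were taken by symbol: every listed protein-coding gene whose symbol starts with MCM, CDC and a digit, CDCA, CDK, CCNA, CCNB, CCND, CCNE, CENP, KIF and a digit, ORC, GINS, POLA, POLD, POLE, RFC, E2F, BUB, AURK or PLK and a digit, with PCNA, RRM2 and TOP2A. The rule reached 77 of the 6641 genes in the deposited table, and 72 of them were high enough to test. By role, 19 act in DNA replication, 22 in mitosis and 12 in the control of entry into S phase. The other 24 share a family name and were not listed under these roles. RNA was sequenced in triplicate (n = 3) from a pair of lines. HCC827 comes from a human lung adenocarcinoma and depends on a mutated EGFR, and its counterpart is labelled HCC827_Er. The series sets parental against resistant cells and asks how histone crotonylation takes part in resistance to EGFR kinase inhibitors. The labels give no drug, dose or time for either line, and whether HCC827_Er is 1 clone is not given in the sources used here.

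Values are FPKM, fragments scaled for transcript length and for the mapped total of the library, as deposited, so the depth of each library is unknown. A gene was called when its limma p, adjusted over all 5276 tested genes, was under 0.05 and its mean log2(FPKM + 1) differed by at least 1, which is 2-fold. The table holds mainly genes that differ: where the average of the lines reached 10 FPKM (2362 genes), the line means of 16 lay within 0.4 of each other on the log2 scale. A small adjusted p is thus the usual case for a listed gene, and small differences are nearly absent from the table. HCC827_Er was called higher for 24.7% of all tested genes, and lower for 19.7%. At the adjusted p alone these shares were 50.6% and 47.7%, and 50.0% and 47.1% had 3 HCC827_Er libraries all above or all below the HCC827 libraries. The FPKM of the listed genes summed to between 222927 and 224211 in HCC827 and between 184633 and 190415 in HCC827_Er. Of 7 carcinoma markers 6 were listed, with summed FPKM of 2197 to 2291 in HCC827 and 2831 to 2923 in HCC827_Er. NKX2-1, the lung epithelial transcription factor, had mean levels of 5.93 and 65.7 FPKM. Of the 6, 5 were called higher, while KRT8, the most abundant in HCC827, was lower at the adjusted p (1744 against 1025 FPKM). Of the markers of other cell types, 4 of 7 leukocyte genes summed to 171 to 178 and 123 to 136 FPKM, nearly all of it CD68. The other 3, CSF1R, LAPTM5 and CD14, were called higher, with means of 0.230, 0.903 and 0.207 FPKM in HCC827 against 5.45, 4.49 and 1.73 FPKM. COL1A1, a fibroblast collagen, was called higher too, from 0.750 to 10.1 FPKM. LUM, of the same fibroblast list, was lower at the adjusted p, with means of 1.81 and 0.530 FPKM. The 3 of 6 listed fibroblast genes summed to at most 3.35 and 11.5 FPKM and the 2 of 5 listed endothelial genes to at most 9.57 and 7.78 FPKM. COL3A1 was listed at 0 in HCC827_Er and CDH5 in HCC827. Their part in the results was not tested.

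A dividing cell first loads helicases onto origins of replication. The origin recognition complex (ORC) and CDC6 place rings of MCM proteins on the DNA, and CDC45 and GINS turn them into active helicases. DNA polymerases alpha, delta and epsilon then copy the strands, held by the sliding clamp PCNA, which the RFC complex loads. Cyclin D with CDK4 or CDK6, and cyclin E with CDK2, free the E2F factors that drive many of these genes. Mitosis follows later, when cyclin B with CDK1, the Aurora and Polo-like kinases, the kinetochore proteins of the CENP group and motor proteins of the kinesin (KIF) family build the spindle and separate the chromosomes. Transcription of the replication genes is known to peak near the start of S phase, through E2F sites, and that of the mitotic genes in G2 and M phase, through a CHR element often paired with CCAAT boxes. In bulk RNA more cycling cells and more transcript per cycling cell cannot be told apart.

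These promoter elements could be looked up in RefSeq's sequences (GRCh38.p14), which matched 67 of the 77 members by symbol. The 250 bases before each start site were searched on both strands for the E2F cores GGCGGGAA, TTGGCGGG and TTTCGCGC, the CHR element TTTGAA and the box CCAAT. The E2F cores GGCGGGAA and TTGGCGGG share letters, so 1 run can hold both, and the other motifs can meet at their end letters. An E2F core stood before 7 of 17 matched replication genes (41.2%), 3 of 21 tested mitosis genes (14.3%) and 4.96% of the 27305 genes in the promoter table, noncoding genes included. The CHR letters stood before none of the 17 replication genes, 6 of the 21 mitosis genes (28.6%) and 16.1% of all genes. CCAAT stood before 14 of 17 (82.4%), 17 of 21 (81.0%) and 37.0%. A match describes the letters only and is no evidence of binding. The 150 bases before the start are shown for 3 replication genes with an E2F core that were called higher, then for 3 mitosis genes. Capitals mark the motifs. The stretches were chosen after the matches were seen.
MCM6, chr2:135876444-135876593, minus strand: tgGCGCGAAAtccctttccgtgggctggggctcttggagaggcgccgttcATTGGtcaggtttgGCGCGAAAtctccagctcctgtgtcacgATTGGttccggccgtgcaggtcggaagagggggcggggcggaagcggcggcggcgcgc
PCNA, chr20:5126623-5126772, minus strand: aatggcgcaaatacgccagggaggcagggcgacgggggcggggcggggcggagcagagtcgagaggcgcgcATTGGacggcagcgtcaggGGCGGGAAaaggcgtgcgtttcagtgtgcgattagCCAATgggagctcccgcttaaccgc
CDC45, chr22:19479770-19479919, plus strand: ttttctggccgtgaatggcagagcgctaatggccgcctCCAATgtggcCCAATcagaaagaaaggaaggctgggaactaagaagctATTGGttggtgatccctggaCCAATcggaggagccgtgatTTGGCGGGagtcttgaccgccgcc
KIF4A, chrX:70289954-70290103, plus strand: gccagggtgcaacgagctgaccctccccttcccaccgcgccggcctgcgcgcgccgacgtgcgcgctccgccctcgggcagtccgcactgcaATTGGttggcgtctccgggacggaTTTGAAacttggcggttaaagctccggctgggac
KIF11, chr10:92592980-92593129, plus strand: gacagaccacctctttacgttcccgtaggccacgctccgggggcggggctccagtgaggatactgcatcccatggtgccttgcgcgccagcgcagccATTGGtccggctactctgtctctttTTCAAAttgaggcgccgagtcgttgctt
TOP2A, chr17:40417897-40418046, minus strand: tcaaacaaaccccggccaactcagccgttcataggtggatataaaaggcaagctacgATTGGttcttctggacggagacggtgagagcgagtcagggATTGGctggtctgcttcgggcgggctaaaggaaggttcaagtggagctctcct
The MCM6 stretch holds E2F cores that begin 148 and 86 bases before the start and CCAAT boxes, printed as ATTGG, that begin at 100 and 58 bases. In KIF4A and KIF11 a CCAAT box begins 24 and 25 bases before the CHR letters, which begin 34 and 28 bases before the start. For KIF11 the bases searched for just after this start were not found in its GENCODE 29 transcripts, so that distance is less certain. The other mitosis genes with CHR letters were CDC25C, CENPA, KIF15 and TOP2A. Those of TOP2A begin before the printed stretch, in which only its CCAAT boxes are marked.

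The replication genes were all higher in HCC827_Er. All 19 listed members were tested, all 19 had an adjusted p under 0.05 with no overlap between the lines, and 7 passed the 2-fold minimum, against 24.7% of all tested genes called higher. None was called lower, and none was lower at the adjusted p alone. Their log2 differences lay in a band between 0.56 and 1.33, with a median of 0.81, and 12 of the 19 lay between 0.5 and 1. The median of all tested genes, 0.43, is no typical size, since small differences are nearly absent from the table. Of all tested genes 2672 were higher at the adjusted p, and 1304 of these were called, against 7 of these 19. The ratio of mean FPKM, HCC827_Er to HCC827, had a median of 1.78 and reached 2.60. The list for replication has 38 symbols, and the other 19 were not analysed here.

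**Figure D1:**
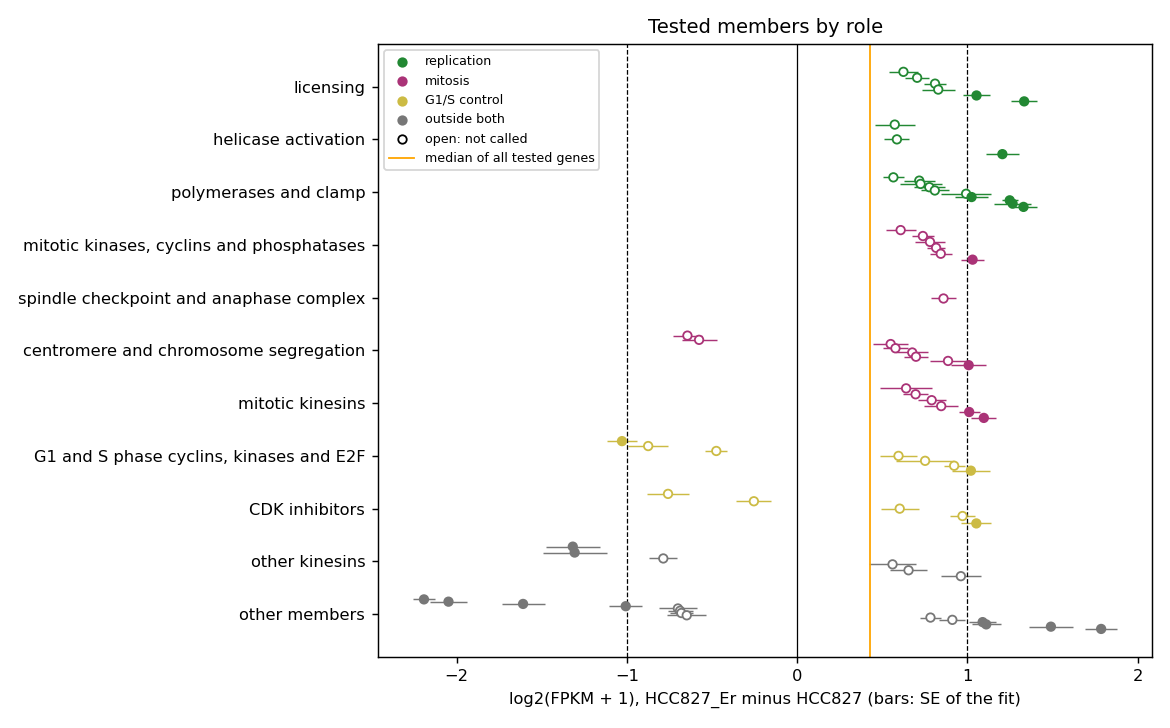
Differences in log2(FPKM + 1), HCC827_Er minus HCC827, of the 72 tested members by role; each point is 1 gene with the SE of the fit, filled where called, the dashed lines mark the 2-fold minimum and the orange line the median of all tested genes. Replication genes lie between 0.56 and 1.33 and mitosis genes, 2 centromere genes apart, between 0.55 and 1.10, while the other roles spread to both sides.

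Of the licensing genes, 6 of 6 were higher at the adjusted p and ORC1 and MCM6 were called, beside 50.6% and 24.7% of all tested genes. MCM6, a subunit of the replicative helicase ring, stood at 20.02, 17.58 and 19.92 FPKM in the HCC827 libraries against 47.3, 50.57 and 51.4 FPKM in those of HCC827_Er. Every HCC827_Er library was above every HCC827 library, by 2.60-fold on average (log2 difference 1.33, SE 0.075, limma adjusted p = 4.09e-07). The ring subunits MCM3 and MCM5 stood at 43.2 ± 3.00 (HCC827) against 76.5 ± 2.33 FPKM (HCC827_Er), and at 27.6 ± 0.656 (HCC827) against 45.7 ± 3.21 FPKM (HCC827_Er) (SD, n = 3). The subunits of this one complex thus differed by unequal amounts, with log2 differences of 1.33, 0.81 and 0.70. ORC1, the origin recognition subunit that is made anew in each cycle, stood at 12.39, 11.04 and 12.42 FPKM in the HCC827 libraries against 24.88, 26.44 and 26.21 FPKM in those of HCC827_Er (log2 difference 1.05, SE 0.079, limma adjusted p = 2.48e-06). ORC2, a subunit that stays on chromatin, had a log2 difference of 0.83, and CDC6, the loader of the ring, one of 0.62.

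Of the genes that activate the helicase, CDC45 was called of 3, beside 24.7% of all tested genes called higher. CDC45, which joins the ring to unwind DNA, stood at 14.44, 14.62 and 16.63 FPKM in the HCC827 libraries against 37.43, 39.52 and 32.43 FPKM in those of HCC827_Er (log2 difference 1.21, SE 0.095, limma adjusted p = 3.32e-06). GINS1 and MCM10, partners in the same step, had log2 differences of 0.59 and 0.57 and stayed under the 2-fold minimum. MCM10 had the lowest level among the replication genes, with means of 3.78 and 6.13 FPKM.

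Polymerases, clamp and nucleotide supply gave 4 called genes of 10, beside 24.7% of all tested genes called higher. PCNA, the clamp that tethers polymerases, had the highest level of the replication genes. It stood at 95.71, 100.7 and 99.15 FPKM in the HCC827 libraries against 230.5, 237.7 and 237.8 FPKM in those of HCC827_Er, a 2.39-fold difference that far exceeds the spread within a line (log2 difference 1.25, SE 0.047, limma adjusted p = 3.51e-08). RRM2, the ribonucleotide reductase subunit that limits the supply of DNA precursors, stood at 37.38, 42.51 and 43.2 FPKM in the HCC827 libraries against 113, 97.04 and 103.7 FPKM in those of HCC827_Er (log2 difference 1.33, SE 0.079, limma adjusted p = 5.89e-07). POLE2, a subunit of polymerase epsilon, stood at 7.85, 9.4 and 8.76 FPKM in the HCC827 libraries against 21.06, 20.46 and 25.32 FPKM in those of HCC827_Er (log2 difference 1.26, SE 0.11, limma adjusted p = 5.44e-06). These 3 genes, MCM6 and CDC45 had the largest differences among the replication genes as deposited, in an order that changes with the pseudocount and with the library left out. POLA1, the catalytic subunit of the polymerase that makes primers, stood at 4.8, 5.39 and 5.61 FPKM in the HCC827 libraries against 11.59, 11.96 and 11.62 FPKM in those of HCC827_Er (log2 difference 1.02, SE 0.096, limma adjusted p = 9.74e-06) and was not called without HCC827 replicate 1 (0.97). The remaining 6 were between 0.56 and 0.99: POLE4, a small subunit of polymerase epsilon, came nearest to the minimum at 0.99, with values of 23.1, 18.78 and 16.31 FPKM in HCC827 against 44.9, 40.85 and 32.8 FPKM. POLD1 and POLD3 of polymerase delta had 0.81 and 0.72, POLA2 had 0.72, and the clamp loader subunits RFC1 and RFC5 had 0.78 and 0.56.

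**Figure D2:**
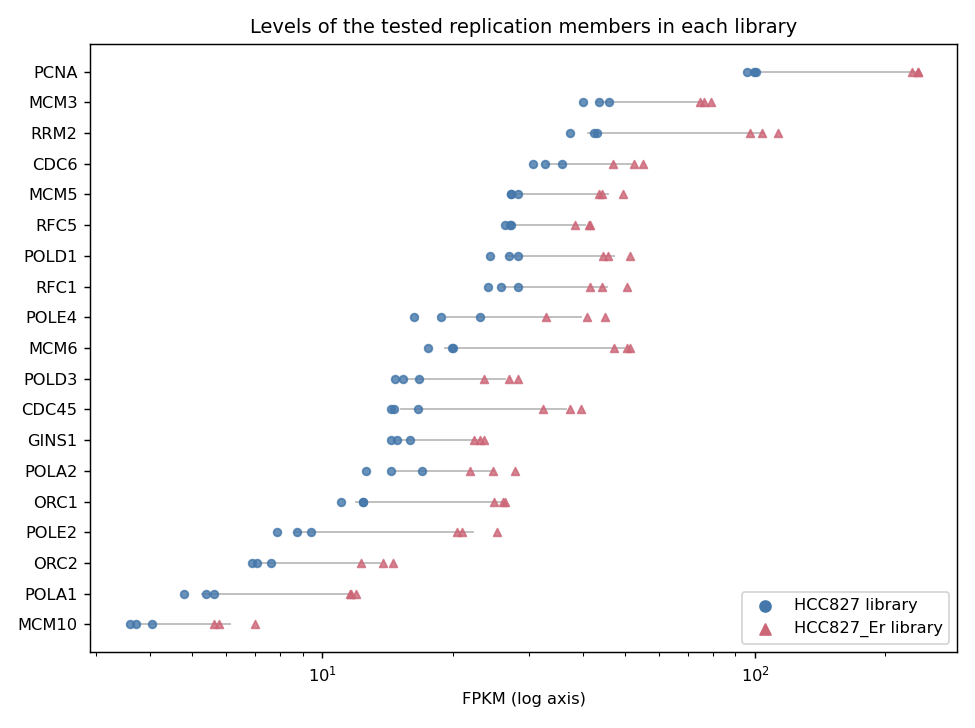
FPKM on a log axis of the 19 tested replication genes in each library, HCC827 as circles and HCC827_Er as triangles, with a grey line between the means of the lines. In every row the 3 triangles lie to the right of the 3 circles, from MCM10 with the lowest to PCNA with the highest HCC827 mean.

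The tested mitosis genes were also higher, apart from 2 centromere genes. The list for mitosis has 58 symbols, and those beyond the 22 listed members were not analysed here. Of the 22 listed members 21 were tested, 19 were higher and 2 lower at the adjusted p, in each case with no overlap between the lines, and 4 were called higher and none lower. As a share, 4 of 21 lay below the 24.7% of all tested genes called higher, while 19 of 21 compares with 50.6% at the adjusted p alone. The median log2 difference was 0.78, and 15 of the 21 lay between 0.5 and 1. The number called turned on single libraries because 3 of the 4 (TOP2A, KIF22 and CENPU) lay at most 0.03 above the minimum: it was 1 without HCC827_Er replicate 3 and 2 without HCC827 replicate 1. A difference given as 1.00 for a lost call lies just under the minimum. The untested member was CCNB3, a cyclin best known from meiosis, which was low in both lines and lower in HCC827_Er without overlap, with means of 0.383 and 0.103 FPKM.

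Of the mitotic cyclins, kinases and phosphatases, all 6 tested members were higher at the adjusted p and TOP2A was called. The shares of all tested genes were 50.6% and 24.7%. TOP2A, the topoisomerase that untangles sister chromatids, stood at 86.49, 90.56 and 93.76 FPKM in the HCC827 libraries against 168.3, 194 and 195 FPKM in those of HCC827_Er (log2 difference 1.03, SE 0.069, limma adjusted p = 1.22e-06), and its difference was just under the minimum without HCC827_Er replicate 2 or 3 (1.00 and 0.99). CCNB1, the cyclin that activates CDK1 at mitotic entry, stood at 112, 114.8 and 112.3 FPKM in the HCC827 libraries against 189.7, 203.5 and 206.3 FPKM in those of HCC827_Er (log2 difference 0.82, SE 0.051, limma adjusted p = 7.90e-07). The lines were widely apart for CCNB1, by 1.77-fold, but under the 2-fold minimum. CCNA2, the cyclin of S and G2 phase, stood at 25.2 ± 0.872 (HCC827) against 46.0 ± 1.52 FPKM (HCC827_Er), and AURKB, the kinase of the chromosomal passenger complex, at 82.3 ± 3.26 (HCC827) against 138 ± 9.48 FPKM (HCC827_Er) (SD, n = 3). CDC25C, a phosphatase that activates CDK1, and PLK4, the kinase of centriole duplication, had log2 differences of 0.78 and 0.61. Of the spindle checkpoint and anaphase genes only BUB1, a checkpoint kinase at kinetochores, was listed. BUB1 stood at 22.41, 23.68 and 24.19 FPKM in the HCC827 libraries against 39.83, 45.23 and 44.79 FPKM in those of HCC827_Er, with 1.85-fold higher levels that stayed under the minimum (log2 difference 0.86, SE 0.074, limma adjusted p = 5.79e-06).

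Among the 6 mitotic kinesins all were higher at the adjusted p and KIF4A and KIF22 were called, beside 50.6% and 24.7% of all tested genes. KIF4A, a chromosome-bound motor of the spindle midzone, stood at 13.99, 14.2 and 15.04 FPKM in the HCC827 libraries against 29.99, 33.06 and 32.85 FPKM in those of HCC827_Er (log2 difference 1.10, SE 0.074, limma adjusted p = 1.29e-06). KIF22, a motor that pushes chromosome arms outward, stood at 24.73, 25.28 and 26.2 FPKM in the HCC827 libraries against 53.19, 50.08 and 53.31 FPKM in those of HCC827_Er (log2 difference 1.01, SE 0.062, limma adjusted p = 6.94e-07), and its call was lost without HCC827 replicate 1 (0.99) or without HCC827_Er replicate 1 or 3 (1.00 each). KIF11, the motor that pushes spindle poles apart, had nearly identical HCC827 values of 8.18, 8.18 and 8.23 FPKM and HCC827_Er values of 13.75, 15.7 and 17.33 FPKM. KIF18B, KIF20A and KIF15 had log2 differences of 0.79, 0.70 and 0.64.

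Among tested genes, the centromere group was the one replication or mitosis list with members on both sides. It had 1 call among 8 genes, beside 24.7% of all tested genes called higher. CENPU, a subunit of the inner kinetochore, was the one called member of 8 and stood at 10.95, 10.93 and 11.38 FPKM in the HCC827 libraries against 21.22, 21.97 and 27.05 FPKM in those of HCC827_Er (log2 difference 1.01, SE 0.10, limma adjusted p = 1.56e-05); it was not called without HCC827 replicate 1 or 2 (1.00 each) or HCC827_Er replicate 3 (0.90). CENPI, CENPX, CENPE, CENPA and CENPW had log2 differences of 0.89, 0.70, 0.68, 0.58 and 0.55. CENPA is the histone variant that marks the centromere and CENPE a kinetochore motor. In contrast CENPT, which links the centromere to the outer kinetochore, stood at 70.57, 58.05 and 56.37 FPKM in the HCC827 libraries against 39.03, 38.3 and 39.33 FPKM in those of HCC827_Er (log2 difference -0.64, SE 0.087, limma adjusted p = 9.92e-05). CENPN, which recognises nucleosomes with CENPA, stood at 41, 44.73 and 38.55 FPKM in the HCC827 libraries against 23.62, 28.3 and 30.77 FPKM in those of HCC827_Er (log2 difference -0.58, SE 0.10, limma adjusted p = 5.67e-04). For both genes all HCC827_Er libraries lay below all HCC827 libraries, by less than 2-fold, and the differences were -0.98 and -0.91 with median-ratio rescaling and -0.40 and -0.34 with sum rescaling. CENPT and CENPN share a chromosome, which is taken up with the positions.

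**Figure D3:**
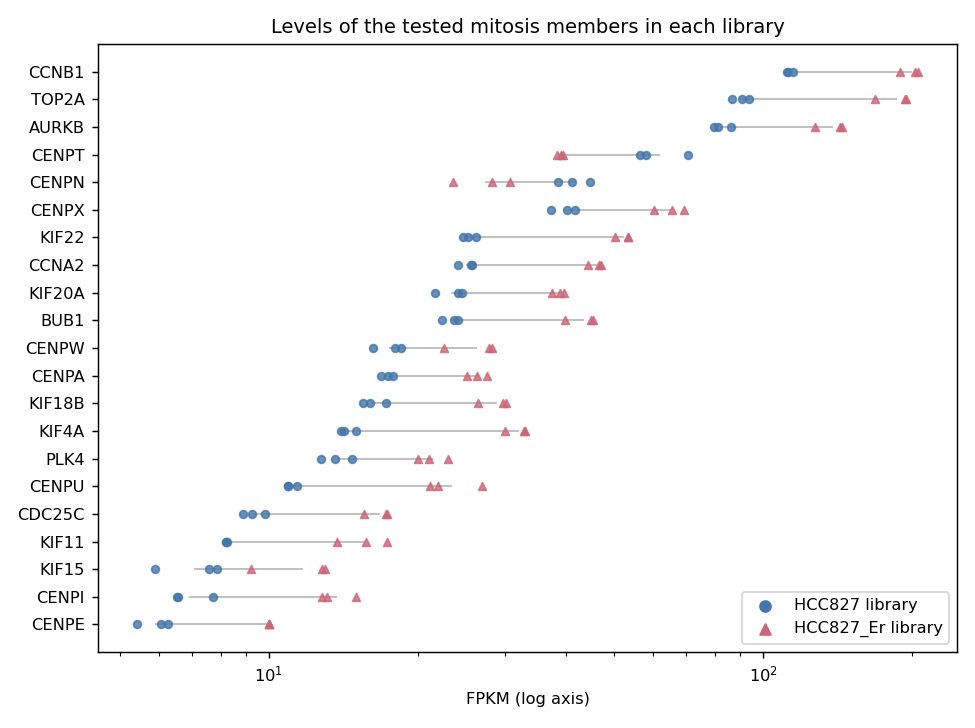
FPKM on a log axis of the 21 tested mitosis genes in each library, HCC827 as circles and HCC827_Er as triangles, with a grey line between the means of the lines. The triangles lie to the right of the circles in 19 rows and to the left in those of CENPT and CENPN.

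Set against each other, the sides differed little in typical size and more in their most abundant genes. The medians of the log2 differences were 0.81 and 0.78, and 7 of 19 against 4 of 21 genes were called. The FPKM of the 19 replication genes summed to 447, 463 and 468 in HCC827 and 930.1, 930.2 and 919 in HCC827_Er. The 21 mitosis genes summed to 661, 650.2 and 649.6 in HCC827 and 1021, 1085 and 1076 in HCC827_Er. The ratio of the first sum to the second, which no rescaling of a library can alter, was 0.677, 0.712 and 0.720 in HCC827 and 0.911, 0.857 and 0.854 in HCC827_Er. It was higher in every HCC827_Er library. Without PCNA and RRM2, left out after their values were seen, it was 0.475 to 0.501 in HCC827 and 0.536 to 0.574 in HCC827_Er, without overlap. Leaving out CENPT and CENPN as well, the lower genes of the mitosis side, gave 0.572, 0.584 and 0.587 in HCC827 against 0.612, 0.585 and 0.574 in HCC827_Er. The lines then overlapped. These 4 genes were chosen by their values, in the direction that draws the ratios of the lines together, so no conclusion is drawn from this overlap. The difference between the median log2 levels of the sides did overlap, at -0.10 to 0.11 in HCC827 and 0.09 to 0.51 in HCC827_Er. Since the genes of a side are not replicates and were chosen with results known, no test was made of this contrast.

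**Figure D4:**
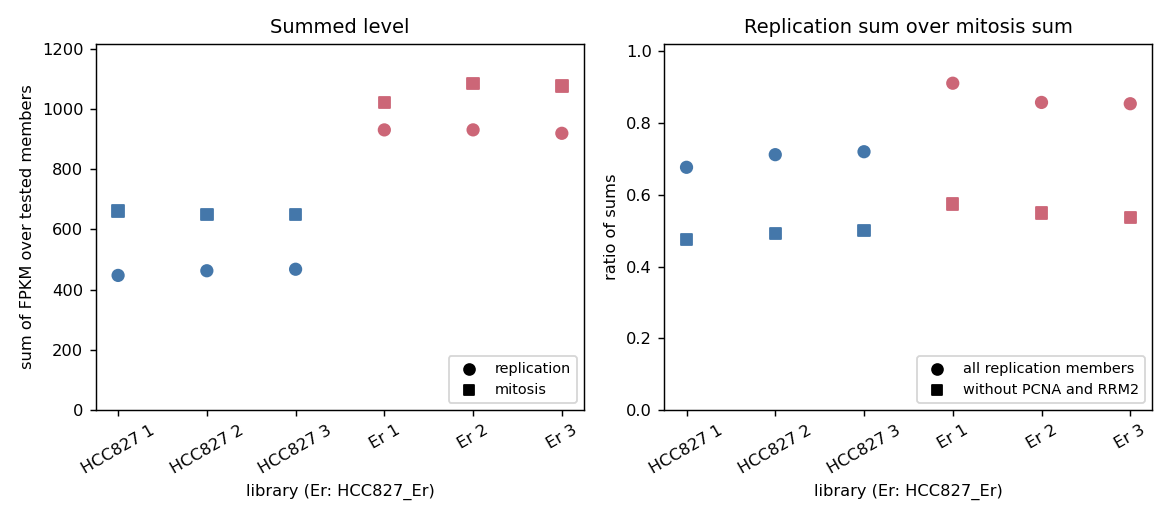
Left, FPKM summed over the tested replication genes (circles) and mitosis genes (squares) in each library; right, the ratio of these sums with all replication genes (circles) and without PCNA and RRM2 (squares), HCC827 in blue and HCC827_Er in red. Both sums and both ratios are higher in each of the 3 HCC827_Er libraries than in any HCC827 library.

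How the libraries are scaled moved the size of these differences. Median-ratio rescaling assumes that most genes do not differ, which the listed genes do not meet, so its shift is uncertain. With median-ratio rescaling, which shifted HCC827_Er against HCC827 by -0.34 on the log2 scale, the medians of replication and mitosis genes were 0.47 and 0.46, beside 0.18 for all tested genes. All 19 replication genes and 17 of the 21 mitosis genes were then higher at the adjusted p, but MCM6 alone of the 40 kept its call (1.00). Of all 5276 tested genes, 2452 were then higher at the adjusted p and 902 were called higher. Sum rescaling sets equal the sums of the listed genes, which are only a part of each library, so its shift is uncertain too. With sum rescaling, a shift of 0.25, the medians were 1.05 and 1.01, beside 0.61 for all tested genes. Called higher were 12 of 19 replication and 11 of 21 mitosis genes, beside 1825 of all 5276 tested genes. The downward shift is smaller than every positive difference among tested members and the upward shift smaller than every negative one, so neither could turn a direction.

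Genes of both processes outside these families were taken from lists by name. The share called higher was near the 24.7% of all tested genes in both lists, while 50.6% of all tested genes were higher at the adjusted p alone. Of 32 further replication genes 12 were listed and tested, all 12 were higher at the adjusted p, and 3 were called higher and none lower, with a median of 0.89. WDHD1, a fork protein that links polymerase alpha to the helicase, had 8.06 ± 1.24 (HCC827) against 21.9 ± 1.80 FPKM (HCC827_Er), TK1, the thymidine kinase of S phase, 51.7 ± 3.22 (HCC827) against 116 ± 6.85 FPKM (HCC827_Er), and LIG1, the ligase that joins Okazaki fragments, 13.6 ± 1.42 (HCC827) against 28.7 ± 0.282 FPKM (HCC827_Er) (SD, n = 3). LIG1 was not called without HCC827 replicate 3 (0.95). Of 56 further mitosis genes 16 were listed and tested, all 16 were higher at the adjusted p, and 4 were called higher and none lower, with a median of 0.84. DLGAP5 and TACC3, spindle proteins, had log2 differences of 1.31 and 1.04, NCAPH, a condensin subunit, 1.20, and UBE2C, the ubiquitin-conjugating enzyme of the anaphase-promoting complex, 1.01. UBE2C was not called without HCC827 replicate 2 (0.98) or HCC827_Er replicate 3 (0.99). With median-ratio rescaling 1 and 0 of these 28 genes were called in the replication and mitosis lists, beside 902 of all 5276 tested genes called higher. All 28 differences were positive.

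The genes that control entry into S phase lay on both sides, near the shares of the whole table. Of 12 tested, 7 were higher and 5 lower at the adjusted p, beside 50.6% and 47.7% of all tested genes. Called were 2 higher and 1 lower, below the 24.7% and 19.7% of all tested genes, and the median was 0.60. CDK6, a kinase partner of cyclin D, stood at 18.97, 17.84 and 19.59 FPKM in the HCC827 libraries against 8.09, 9.02 and 9 FPKM in those of HCC827_Er, lower and past the minimum (log2 difference -1.03, SE 0.086, limma adjusted p = 4.68e-06), though not without HCC827_Er replicate 1 (-0.98) or with sum rescaling (-0.80). CCND1, which encodes cyclin D1, stood at 61.25, 57.56 and 57.5 FPKM in the HCC827 libraries against 119.1, 105.7 and 112.2 FPKM in those of HCC827_Er (log2 difference 0.92, SE 0.062, limma adjusted p = 1.25e-06). Cyclin D1 was thus higher without overlap, under the minimum, while its partner CDK6 and the related cyclin gene CCND3 were lower at the adjusted p. CCND3 averaged 41.0 ± 1.79 (HCC827) against 29.2 ± 1.03 FPKM (HCC827_Er) (SD, n = 3). CDK3, a kinase of the exit from rest, had a log2 difference of 0.75. The list for S-phase control has 27 symbols, and those beyond the 12 were not analysed here, CDK2, CDK4, CCNE1 and E2F1 among them.

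Among the E2F genes, E2F2, an activator, stood at 1.26, 1.41 and 1.3 FPKM in the HCC827 libraries against 3.7, 3.33 and 4.13 FPKM in those of HCC827_Er and was called higher (log2 difference 1.02, SE 0.11, limma adjusted p = 2.79e-05), with the call lost without HCC827 replicate 1 (1.00) or HCC827_Er replicate 3 (0.96). Its pseudocount matters at such levels: with 5 in place of 1 the difference was 0.46. The repressors E2F7 and E2F8, which often act as a pair, went apart. E2F7 stood at 7.95, 8.2 and 7.75 FPKM in the HCC827 libraries against 3.6, 4.59 and 3.54 FPKM in those of HCC827_Er (log2 difference -0.88, SE 0.12, limma adjusted p = 8.93e-05), and E2F8 at 4.73, 5.87 and 5.16 FPKM in the HCC827 libraries against 7.9, 8.55 and 8.83 FPKM in those of HCC827_Er (log2 difference 0.59, SE 0.11, limma adjusted p = 6.47e-04). Neither passed the 2-fold minimum, and in neither did the lines overlap.

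Of the 5 genes for CDK inhibitors, CDKN1A was called higher, beside 24.7% of all tested genes. CDKN1A encodes p21, which is known to hold the cell cycle and to bind PCNA, and it stood at 7.88, 9.12 and 8.23 FPKM in the HCC827 libraries against 18.13, 19.54 and 17.82 FPKM in those of HCC827_Er (log2 difference 1.05, SE 0.089, limma adjusted p = 5.23e-06). It was therefore higher in the same libraries as PCNA and the other replication genes. The call of CDKN1A was lost with median-ratio rescaling (0.735) and with a pseudocount of 5 (0.81). CDKN3, a phosphatase that acts on CDKs and is itself made late in the cycle, stood at 52.75, 51.2 and 59 FPKM in the HCC827 libraries against 101, 114.2 and 106.9 FPKM in those of HCC827_Er (log2 difference 0.97, SE 0.073, limma adjusted p = 2.49e-06). CDKN2D, CDKN2B and CDKN1C had log2 differences of 0.60, -0.25 and -0.76, and CDKN1C was low in both lines, at 1.76 and 0.637 FPKM. Of 24 further genes of the checkpoints and the RB pathway, 9 were tested, 6 were higher and 3 lower at the adjusted p, and 2 were called higher, near the 24.7% of all tested genes. CCNG2, an atypical cyclin tied to arrest, had 7.67 ± 0.982 (HCC827) against 27.3 ± 4.01 FPKM (HCC827_Er). PKMYT1, a kinase that restrains CDK1, had a log2 difference of 1.04, and was not called without HCC827 replicate 1 (0.98) or HCC827_Er replicate 1 (0.93). RB1, which restrains E2F, had a log2 difference of -0.56.

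The family names also reached 24 genes not listed under these roles, and these held the largest differences of all 77. The 15 that are not kinesins were grouped by default, being on no role list, so some may act in the cell cycle. Of the 24, 20 were tested, and 4 of them were called higher and 6 lower. These counts stand beside 24.7% and 19.7% of all tested genes, and the median was -0.66. PLK2, a Polo-like kinase of the stress response and of centriole duplication, stood at 94.89, 97.27 and 98.31 FPKM in the HCC827 libraries against 19.27, 21.81 and 20.21 FPKM in those of HCC827_Er, 4.74-fold lower in HCC827_Er (log2 difference -2.19, SE 0.065, limma adjusted p = 1.01e-08). PLK3, a related stress kinase, stood at 13.6, 13.42 and 13.92 FPKM in the HCC827 libraries against 6.85, 5.67 and 6.39 FPKM in those of HCC827_Er (log2 difference -1.01, SE 0.096, limma adjusted p = 1.10e-05). PLK3 was not called without HCC827 replicate 3 (-0.99) or HCC827_Er replicate 2 (-0.94), nor with sum rescaling (-0.78). The Polo-like kinases therefore split, with PLK2 and PLK3 lower and the centriole kinase PLK4 higher at the adjusted p under each of the 3 scalings. PLK2, like PLK4, is tied to centriole duplication, and roles were set with results known: counted under mitosis, PLK2 would be the 1 gene called lower there. CDK14, a kinase of Wnt receptor signalling, stood at 10.57, 9.97 and 10.3 FPKM in the HCC827 libraries against 1.46, 1.9 and 1.84 FPKM in those of HCC827_Er (log2 difference -2.05, SE 0.11, limma adjusted p = 3.22e-07). CDK18, a kinase of the PCTAIRE group, moved the other way and stood at 6.82, 7.82 and 6.24 FPKM in the HCC827 libraries against 26.93, 25.47 and 26.63 FPKM in those of HCC827_Er (log2 difference 1.78, SE 0.095, limma adjusted p = 2.80e-07). These CDK-named genes do not drive S phase or mitosis as CDK1 and CDK2 do.

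CDCA7 and CDCA4, named for their cell cycle dependent expression, were called higher, with 19.4 ± 1.00 (HCC827) against 42.4 ± 3.27 FPKM (HCC827_Er) and with 18.3 ± 0.836 (HCC827) against 40.8 ± 4.13 FPKM (HCC827_Er) (SD, n = 3). Their log2 differences of 1.09 and 1.11 lie in the band of the replication and mitosis genes. Both calls were lost with median-ratio rescaling (0.76 and 0.78) and with a pseudocount of 5 (0.96 and 0.97). The CDC42 effectors and kinases went both ways: CDC42BPG was called higher (log2 difference 1.49, SE 0.13, limma adjusted p = 6.56e-06) and CDC42EP2 lower (log2 difference -1.61, SE 0.13, limma adjusted p = 3.28e-06). The other tested members with these names were not called: CDC42EP3 and CCNB1IP1 had log2 differences of 0.91 and 0.78, and CDC42BPA, CDC14B and CDK2AP1 of -0.70, -0.69 and -0.68. Of the 6 tested kinesins outside mitosis, 2 were called lower and none higher, beside 19.7% and 24.7% of all tested genes, and the median was -0.11. KIF7, a motor of cilia and Hedgehog signalling, had 4.80 ± 0.711 (HCC827) against 1.34 ± 0.411 FPKM (HCC827_Er), and KIF12 4.45 ± 0.943 (HCC827) against 1.21 ± 0.477 FPKM (HCC827_Er). The other 4, KIF21A, KIF24, KIF13B and KIF21B, had log2 differences of -0.79, 0.56, 0.65 and 0.96. By job, all 6 mitotic motors were higher at the adjusted p. Of the other motors 3 were higher and 3 lower, near the 50.6% and 47.7% of all tested genes. The difference between these groups was not tested. KIF25, KIF26A, KIF26B and CDC42EP5 were not tested because fewer than 3 libraries reached 1 FPKM, and their means were at most 1.39 FPKM in either line.

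The 40 tested replication and mitosis genes lie on 16 chromosomes. CENPT and CENPN, the 2 lower genes, are both on chromosome 16, beyond its longest stretch with no gene start (35.9 to 46.5 Mb in GENCODE 29 on GRCh38). Of the 173 other tested genes on that side 16.8% were higher in HCC827_Er, whereas on the near side, which holds KIF22, it was 62.6% of 91. CDK10, a member on no role list, lies on the far side too and stood at 169 ± 22.3 (HCC827) against 108 ± 13.9 FPKM (HCC827_Er) (SD, n = 3). On chromosome 14, which holds POLE2, CDKN3, CDCA4 and CCNB1IP1, 86.5% of 251 other tested genes were higher, and on chromosome X, which holds POLA1, KIF4A and CENPI, 86.5% of 267. On chromosome 2 it was 70.5% of 319, and 6 of the 40 genes lie there: MCM6, RRM2, ORC2, POLE4, BUB1 and CENPA. WDHD1 and DLGAP5, with the largest differences in the lists of further replication and mitosis genes, lie on chromosome 14, among its 251 other genes. The part of the neighbourhood in these differences was not tested. Leaving out the 7 replication and mitosis genes of chromosomes 14, 16 and X, a step added after the positions were seen, left 17 replication and 16 mitosis genes, chromosome 2 included. Since CENPT and CENPN are among those left out, the rest are higher by the choice itself. They had medians of 0.81 and 0.76 and ranges of 0.56 to 1.33 and 0.55 to 1.03. Called higher were 5 of the 17 and 2 of the 16, the first near and the second below the 24.7% of all tested genes. No tested replication or mitosis gene lay on chromosome 13, where 25.3% of 79 tested genes were higher. RB1, with its log2 difference of -0.56, lies on chromosome 13, and the part of its position was not tested.

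**Figure D5:**
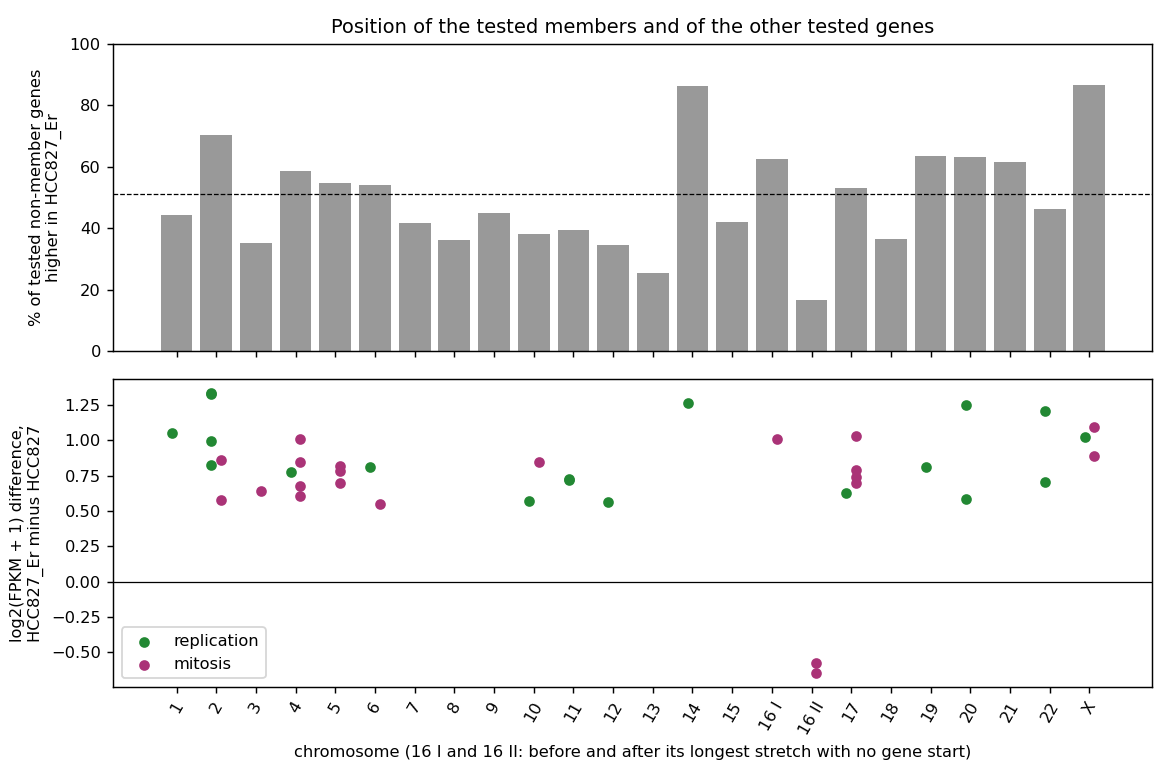
Top, the percentage of tested genes outside these families that were higher in HCC827_Er, by chromosome, with chromosome 16 split at its longest stretch with no gene start and a dashed line at the share over all chromosomes drawn; bottom, log2(FPKM + 1) differences, HCC827_Er minus HCC827, of the 40 tested replication and mitosis genes. CENPT and CENPN, below 0, stand on the part of chromosome 16 where 16.8% of the other genes were higher.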

How the data were processed

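Total RNA of 6 samples, 3 of each line, was sequenced from Illumina TruSeq libraries, per the labels' protocols. The authors deposited 1 gene table of FPKM, without counts. The submitters' processing notes name fastp, HISAT2 and StringTie, and the builds GRCh38.p14 and hg19 without roles. No source used here gives versions, the annotation or the rule for listing genes. No label says that the libraries are separate cultures, so the p-values reflect the spread between these 6 samples, which may be technical. FPKM is relative to each library's own total, so very abundant transcripts lower all other values.

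Symbols matched 6636 identifiers, and types and positions came from GENCODE 29. A gene entered the test when 3 or more libraries reached 1 FPKM. Its log2(FPKM + 1), a scale that understates changes of low genes, was modelled by limma 3.58.1 (R 4.3.3) with the line as the only term and a mean-variance trend, and p was adjusted over 5276 genes after Benjamini and Hochberg. The fit and the calls were tested on simulated data in which few genes differed. The listed genes mostly differ, so that test covers neither this setting nor the scaling. An exact test of 3 against 3 cannot go below p = 0.10. At FPKM of at least 10, libraries of a line shared at most 4 identical values, so each counted once. The 2 pseudogenes that the rule reached were left out.

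Members and lists were chosen with earlier results of these data known. Named with values were up to 6 called genes with the largest differences per role (8 in the roles outside both processes, 4 per list of other pathway genes, and, where none was called, the 2 most abundant) and 18 fixed names, of which 7 were listed; further members were named after their values were seen. Alternatives were other pseudocounts, minima and scalings, no trend, no minimum difference, a replicate block and each library left out.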

Additional observations from a re-analysis of the deposited data

How the results depend on the processing

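The replicate block, limma without its trend, no minimum FPKM and a pseudocount of 0.1 kept the calls of all 36 genes named by the rule; the pseudocount of 0.1 called 3 instead of 1 S-phase control genes lower. A pseudocount of 5 called 579 of all genes higher and 506 lower, replication 4 higher, mitosis 0 higher (median 0.64), S-phase control 0 higher and 0 lower, and the other roles 2 higher and 3 lower. FPKM of at least 5 called 867 of all genes higher and 1 S-phase control gene higher. Median-ratio rescaling called 1671 of all genes lower, replication 1 higher (median 0.47), mitosis 0 higher (median 0.46), S-phase control 0 higher and 2 lower, and the other roles 2 higher and 10 lower. Sum rescaling called replication 12 higher (median 1.05), mitosis 11 higher (median 1.01), S-phase control 4 higher and 0 lower, and the other roles 7 higher. The split of all genes was 902 higher and 1671 lower with the first rescaling and 1825 higher and 794 lower with the second, against 1304 and 1041 as deposited. With no minimum difference 2672 of all genes were higher and 2515 lower, replication 19 higher, mitosis 19 higher and 2 lower, S-phase control 7 higher and 5 lower, and the other roles 9 higher and 11 lower. Without the members of chromosomes 14, 16 and X, added after seeing the data, mitosis had 2 called higher.

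Without 1 library at a time, replication had 7 to 8 called higher and 0 lower (median 0.80 to 0.85), mitosis 1 to 4 higher and 0 lower (median 0.76 to 0.79), S-phase control 1 to 3 higher and 0 to 1 lower, the other roles 4 to 5 higher and 5 to 6 lower, and all genes 1298 to 1334 higher and 1034 to 1056 lower. The replicate numbers did not pair the libraries: same-numbered libraries correlated in their deviations with r of 0.106, -0.022 and 0.049, and HCC827 replicate 2 correlated best with HCC827_Er replicate 3 (0.039). With the replicate number as a block, replication still had 7 called higher, mitosis 4 higher and all genes 1304 higher and 1041 lower. The table shows no counts, so counting error is unknown, and the values of genes near 1 FPKM are the least certain.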
